A study of Homo sapiens with 12 samples.

Results

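Cholesterol is made from acetyl-CoA through mevalonate and squalene in the endoplasmic reticulum, and the genes of this route are switched on together when membrane sterol is low. The switch is SREBP-2, encoded by SREBF2, a membrane-bound transcription factor that INSIG proteins hold in the endoplasmic reticulum while sterol is plentiful. When oxidised sterols accumulate, the LXR receptors induce exporters such as ABCA1 and the related regulator SREBF1, so synthesis and export genes commonly report opposite sides of the sterol balance. Described here are 8 protein-coding genes taken by name from the 58735 genes of a count table: the synthesis enzymes HMGCS1, IDI1, FDFT1 and SQLE, the regulators SREBF2 and INSIG1, the sterol carrier STARD4 and the exporter ABCA1. All 8 passed the low-count filter.

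The RNA came from fibrin-embedded tissue of GFP-carrying MDA-MB-231 cells, an established human triple-negative breast cancer line, grown for 5 days under flow in a perfused plate. It was grown alone (monoculture), with hepatic tissue of the hepatoma line HepG2 and 2% lung fibroblasts, or with cardiac tissue of cardiomyocytes made from induced pluripotent stem cells and 2% cardiac fibroblasts. Each condition had 4 libraries, called biological replicates in the labels, which do not say whether separate platings stood behind them, so p-values speak only of the spread among these libraries, which may be technical. The 3 conditions therefore share the cell line, the gel and the flow, and only the partner tissue differs by label. Only the cancer tissue was sequenced.

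Library totals ran from 35042363 to 42047064 counts in monoculture, from 26227140 to 42430001 in the hepatic and from 26986277 to 37400378 in the cardiac co-culture. Cardiac replicate 4 lay at -24.9 on the first principal component, among the monoculture libraries (-51.1 to -22.3), while the other cardiac libraries lay between 6.79 and 16.3. All 10 markers fixed for the cancer line averaged at least 1 CPM (the counts-per-million scale, with TMM library factors) in each condition. Their summed level ran from 5165 to 5601 CPM in monoculture, from 5603 to 5903 in the hepatic and from 5163 to 5385 in the cardiac co-culture. Of 10 hepatocyte markers none averaged 1 CPM in any condition, and their sum was at most 1.57 CPM in the hepatic libraries, where APOA2 and RBP4 had no counts, against 1.19 in monoculture. Of 10 cardiomyocyte markers 1 averaged 1 CPM in each condition, and their sum was at most 4.37 CPM in the cardiac and 3.16 in the monoculture libraries. MYH6 (21 counts), MYL7 (8), MYBPC3 (2) and TNNI1 (1) were counted in cardiac replicate 4 and in none of the other libraries. ACTN2 had 8 counts there against at most 2 elsewhere, and NPPA 10 against at most 7. The other markers were higher elsewhere: TNNT2 (2 there, 4 in monoculture replicate 4) and NKX2-5 (2 there, 5 in monoculture replicate 3). So were MYL4 (3 there, 24 in hepatic replicate 2) and RYR2 (109 there, 124 in monoculture replicate 3). Of 10 fibroblast markers 4, 2 and 4 averaged 1 CPM in monoculture, hepatic and cardiac co-culture, with sums of at most 16.5, 12.4 and 12.1 CPM. These markers did not move together beside hepatic tissue. By edgeR's test against monoculture, DCN (2.48 to 0.28 CPM) and FBLN1 (6.12 to 0.86) were lower there. COL1A2 (1.56 to 4.55 CPM) and COL3A1 (0.089 to 0.63) were higher, and PDGFRB and LUM did not pass. In bulk RNA, fewer cells of a type and less RNA per cell cannot be told apart.

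The sequences before the start sites are shown because these genes are known for control by sterol-sensing factors that bind there. RefSeq (GRCh38.p14) had windows of 300 bases, 250 before and 50 after a start site, for 6 of the 8 genes. Searched on both strands were the sterol response element TCACNCCAC, the E-box TCACGTGA that SREBP proteins also bind, the NF-Y box CCAAT, the GC box GGGCGG and the direct repeat bound by LXR. The letters of the LXR repeat were chosen to admit the form known from ABCA1, so its match there is no finding. The first 3 stretches end where the RefSeq or the GENCODE gene begins, whichever comes first, and the other 2 are 30 bases around a single motif that lies inside the first exon in GENCODE. Each reads along the gene's own strand, with motifs in capitals.

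SREBF2, chr22:41832855-41833078, plus strand: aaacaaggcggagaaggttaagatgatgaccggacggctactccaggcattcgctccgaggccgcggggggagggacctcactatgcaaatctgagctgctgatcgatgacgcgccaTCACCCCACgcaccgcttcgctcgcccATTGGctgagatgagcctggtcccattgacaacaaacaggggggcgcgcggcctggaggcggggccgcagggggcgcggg
HMGCS1, chr5:43313513-43313662, minus strand: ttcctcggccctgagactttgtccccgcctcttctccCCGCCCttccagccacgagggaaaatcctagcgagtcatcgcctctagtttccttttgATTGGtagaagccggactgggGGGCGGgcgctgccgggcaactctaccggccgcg
STARD4, chr5:111512591-111512785, minus strand: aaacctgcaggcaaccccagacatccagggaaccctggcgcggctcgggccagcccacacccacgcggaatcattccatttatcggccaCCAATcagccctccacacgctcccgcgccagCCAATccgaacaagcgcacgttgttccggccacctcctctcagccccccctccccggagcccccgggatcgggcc
INSIG1, chr7:155297811-155297840, plus strand: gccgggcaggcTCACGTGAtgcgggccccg
ABCA1, chr9:104928202-104928231, minus strand: caggcttTGACCGATAGTAACCTctgcgct

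A sterol response element was present in the SREBF2 window and in 1.13% of all 35116 windows, and the E-box in the INSIG1 window and in 0.98% of all. The NF-Y box was present in at least 1 window of 5 of the 6 genes (6 of their 9 windows, against 34.6% of all windows), ABCA1 being the gene without it. All 9 windows held a GC box, against 45.0% of all windows. The LXR repeat was present in the ABCA1 window and in 0.094% of all windows. GC boxes can overlap each other, as in INSIG1 and SREBF2, and the NF-Y boxes of both strands overlap in IDI1. These are matches of letters in short windows and say nothing of binding in these cells.

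Levels were compared between genes only after division by the summed exon length of all annotated isoforms. In monoculture FDFT1, squalene synthase, was highest at 65.8 ± 3.30 CPM per kb (SD, n = 4), followed by INSIG1 (55.6 ± 3.02) and SREBF2 (46.5 ± 0.72). IDI1, which isomerises isopentenyl diphosphate, and HMGCS1, which makes HMG-CoA, came next at 35.4 ± 1.87 and 33.7 ± 1.51 CPM per kb, and the ranges of these neighbours overlapped. SQLE, squalene epoxidase, lay at 26.1 ± 1.47, STARD4, a soluble sterol carrier, at 18.9 ± 0.70, and ABCA1, which passes cholesterol to apolipoproteins, at 2.29 ± 1.04 CPM per kb. No other neighbours in this order overlapped. Beside hepatic tissue the order was FDFT1 (74.2 CPM per kb), INSIG1 (68.3), SREBF2 (50.003), IDI1 (35.7), HMGCS1 (34.5), STARD4 (22.3), SQLE (22.1) and ABCA1 (3.80), and beside cardiac tissue INSIG1 (61.7), FDFT1 (58.6), SREBF2 (49.6), HMGCS1 (32.3), IDI1 (31.4), SQLE (22.1), STARD4 (20.2) and ABCA1 (5.24). In both co-cultures the ranges overlapped between FDFT1 and INSIG1, between IDI1 and HMGCS1 and between SQLE and STARD4. Beside cardiac tissue the ranges of INSIG1 and SREBF2 overlapped as well. ABCA1 was last in all 3 conditions.

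Hepatic co-culture was compared with monoculture to see how the cancer tissue differed when grown next to hepatic tissue, a known source of lipoproteins. The 8 genes did not move one way. INSIG1 and STARD4 rose, SQLE fell, and the remaining 5 did not pass the test (edgeR's quasi-likelihood test, Benjamini-Hochberg adjusted p under 0.05 over 17468 genes). Called were thus 3 of 8 (2 higher, 1 lower), against 28.0% of all genes tested (14.4% higher, 13.6% lower), a share near the background. With upper-quartile scaling, 2875 of all genes were higher and 1927 lower, against 2518 and 2374, and the calls among the 8 genes were 2. The median log2 fold change of the 8 was 0.14, beside 0.015 over all genes tested. These 3 calls rest on few libraries: without monoculture replicate 3 or hepatic replicate 3, none of the 8 genes was called, and without monoculture replicate 1, monoculture replicate 4 or hepatic replicate 2 only 1 was. Calls over all genes also moved when single libraries were left out, from 3660 to 5529, against 4892 with all 12 libraries.

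**Figure D1:**
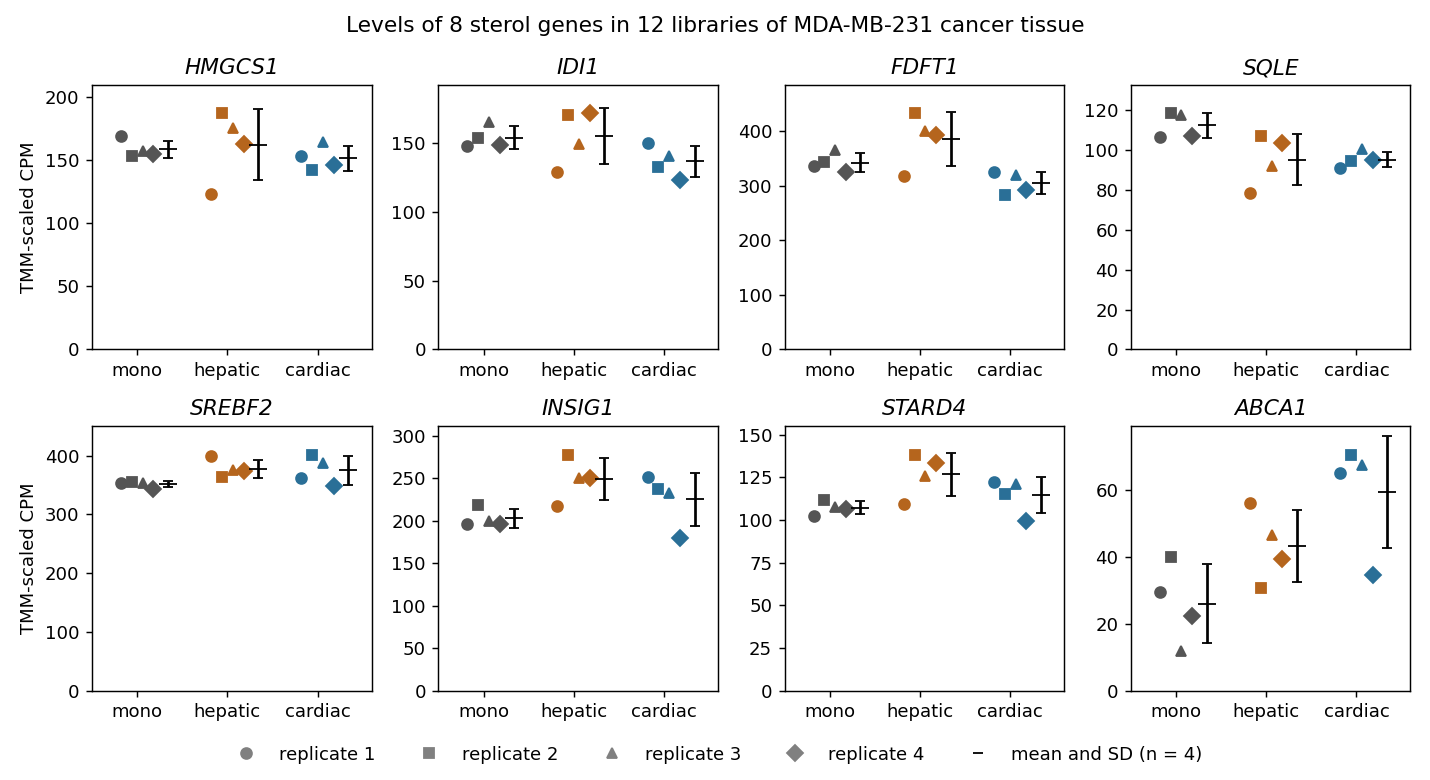
Level of each gene in each library (vertical axes, TMM-scaled CPM, starting at 0) by condition (horizontal axes), with marker shapes for the replicate and a bar for the mean and SD of 4 libraries. Most genes stay within a narrow band across conditions; ABCA1 spreads from 12.0 to 70.6 CPM, and the circle of hepatic replicate 1 is the lowest hepatic point for the synthesis enzymes, INSIG1 and STARD4.

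INSIG1 (chromosome 7, 155297776 to 155310235, GRCh38), which holds SREBP in the endoplasmic reticulum and is itself a SREBP target, measured 196, 219, 200.3 and 196 CPM in monoculture and 217, 278, 251 and 251 in the hepatic co-culture. Only hepatic replicate 1 reached down into the monoculture range. The difference was 0.30 ± 0.09 on the log2 scale (SE; edgeR, adjusted p = 0.022). STARD4 (chromosome 5, 111496033 to 111512590), which moves cholesterol between membranes, measured 102, 112, 108 and 107 CPM in monoculture and 109.6, 138, 126 and 134 in the hepatic co-culture. Here too hepatic replicate 1 alone overlapped, and the difference was 0.24 ± 0.08 (edgeR, adjusted p = 0.0277). In both genes hepatic replicate 2 was the highest of the 12 libraries.

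SQLE (chromosome 8, 124998497 to 125022283), a rate-controlling step that adds oxygen to squalene, measured 107, 118, 117 and 107 CPM in monoculture and 78.5, 107, 91.8 and 103 in the hepatic co-culture. The hepatic libraries reached from well below the monoculture range to its lower edge. SQLE fell by 0.24 ± 0.08 (edgeR, adjusted p = 0.0365), but with upper-quartile scaling or with only these 8 libraries in the fit it did not pass.

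The other 3 enzymes did not pass. HMGCS1 (chromosome 5, 43289395 to 43313512) measured 169, 153, 157 and 155 CPM in monoculture and 123, 187, 176 and 163 in the hepatic co-culture, whose spread enclosed the monoculture values; its log2 fold change was 0.03 (95% confidence interval -0.17 to 0.24). IDI1 (chromosome 10, 1039152 to 1049170) measured 148, 154, 165 and 148 CPM alone and 129, 171, 149.6 and 172 with hepatic tissue, a log2 fold change of 0.01 (-0.17 to 0.19). For these genes, a rise of the size seen in INSIG1 lay outside the interval, while rises up to 0.24 (HMGCS1) or 0.19 (IDI1) lay within it. FDFT1 (chromosome 8, 11795573 to 11839309) measured 336, 343, 365 and 325 CPM alone and 317, 433, 400.4 and 393 with hepatic tissue. Hepatic replicates 2 to 4 lay above every monoculture library and replicate 1 below all of them. Its log2 fold change was 0.17 (-0.0013 to 0.35; edgeR, adjusted p = 0.131), and without hepatic replicate 1 it was 0.26 with adjusted p = 0.0101.

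SREBF2 (chromosome 22, 41833079 to 41907308) measured 353, 355, 353 and 343 CPM in monoculture and 399.7, 363, 375 and 374 in the hepatic co-culture. It was the only 1 of the 8 genes whose hepatic libraries all lay above the monoculture ones, which 15.1% of all genes tested did in this direction. The difference was small, 0.10 ± 0.06, and did not pass (edgeR, adjusted p = 0.229). ABCA1 (chromosome 9, 104781002 to 104928237) measured 29.6, 39.9, 12.0 and 22.4 CPM alone and 56.0, 30.6, 46.6 and 39.4 with hepatic tissue. These ranges overlapped, and a log2 fold change of 0.73 with an interval from -0.10 to 1.56 leaves both no difference and a large one possible (edgeR, adjusted p = 0.177).

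**Figure D2:**
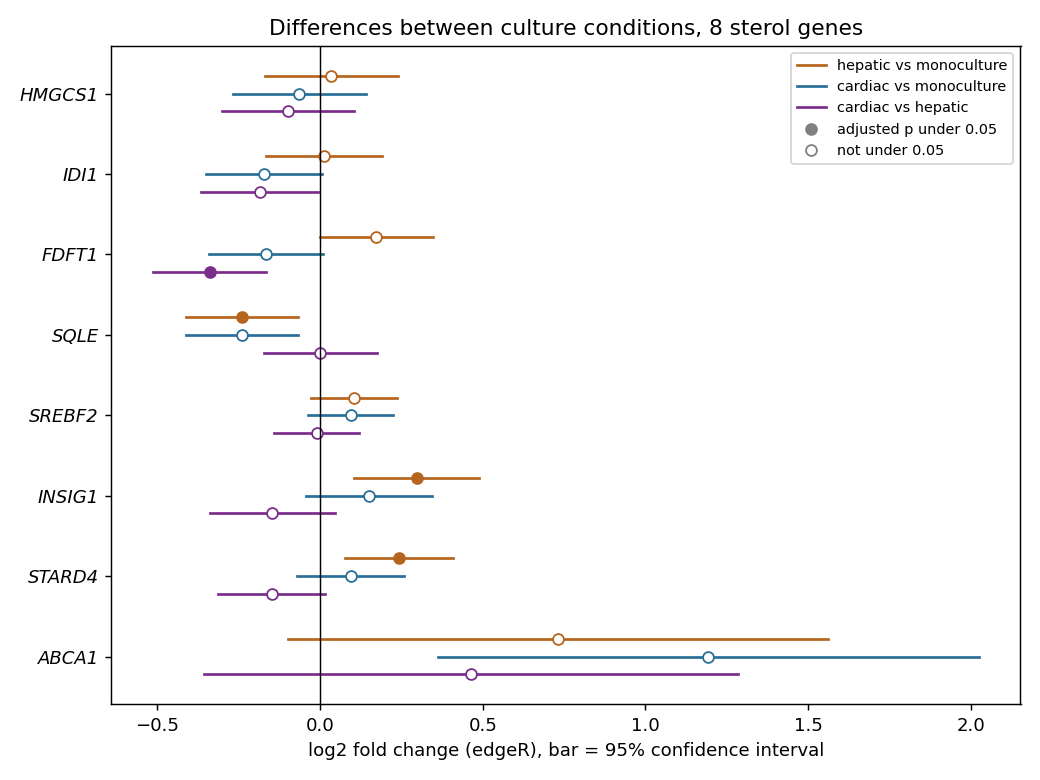
Log2 fold change of each gene (points) with its 95% confidence interval (bars) in the 3 comparisons; filled points passed edgeR's test with adjusted p under 0.05. Filled are INSIG1, STARD4 and SQLE in hepatic co-culture against monoculture and FDFT1 between the co-cultures; the ABCA1 intervals are the widest of the 8 genes.

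More enzymes of the route fell beside hepatic tissue than the 4 described so far show. Of 21 sterol synthesis enzymes, all tested and 4 of them among the 8 genes, 10 fell, SQLE included, and none rose, beside 13.6% of all genes that fell. Their median log2 fold change was -0.22, against 0.015 over all genes tested. PMVK, which phosphorylates phosphomevalonate, fell by 0.32 ± 0.08. LSS, which closes the sterol rings, fell by 0.31 ± 0.08. DHCR7, the reductase that yields cholesterol from its direct precursor, fell by 0.31 ± 0.08. ACAT2, the thiolase that starts the route, fell by 0.46 ± 0.12 from 92.1 ± 9.95 to 66.7 ± 10.4 CPM (n = 4 each), and every hepatic library lay below every monoculture library. By edgeR's quasi-likelihood test, the adjusted p of these 4 lay between 0.00458 (PMVK) and 0.00946 (ACAT2), and they passed in all 18 alternative fits. The count of 10 was 5 without monoculture replicate 3 and 6 without hepatic replicate 3, and 8 with upper-quartile scaling. In the same comparison some of the 10 markers of the cancer line moved, and in both directions, by edgeR's test. VIM (0.59), LGALS1 (0.45) and MSN (0.27) were higher and S100A4 (-0.84) and CAV1 (-0.44) lower on the log2 scale. ANXA1, CD44, AXL, PLAU and KRT18 did not pass. Over all genes tested, 14.4% were higher and 13.6% lower. The part of the markers that moved in the enzymes' fall was not tested.

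**Figure D3:**
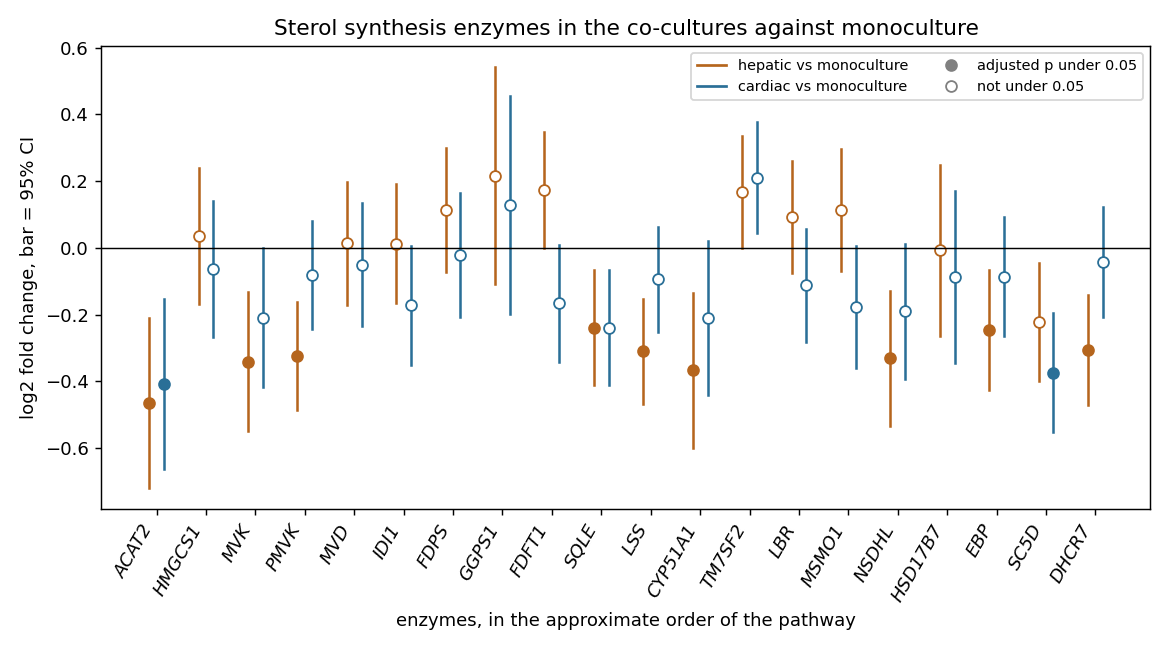
Log2 fold change (vertical axis, bars for the 95% confidence interval) of 20 sterol synthesis enzymes in approximate pathway order (horizontal axis), hepatic (brown) and cardiac (blue) co-culture against monoculture; filled points passed edgeR's test. In the hepatic comparison 9 points are filled, all below 0, and in the cardiac comparison 2.

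Of the 7 genes of SREBP processing, 2 rose beside hepatic tissue and none fell, beside 14.4% higher and 13.6% lower among all genes tested. They were INSIG1 and SREBF1, the SREBP gene tied to fatty acid synthesis. The count was 0 without monoculture replicate 1, 3 or 4 or hepatic replicate 3, 1 without hepatic replicate 2, and at most 3 with any library left out. SREBF1 went from 108 ± 12.9 to 139 ± 20.2 CPM (0.37 ± 0.11; edgeR, adjusted p = 0.0258), and 5 libraries ended that call when left out singly: monoculture replicates 1, 3 and 4 and hepatic replicates 1 and 3. SREBF2, INSIG2, SCAP and the proteases MBTPS1 and MBTPS2 did not pass. Among 13 genes of uptake and transport, 6 rose and 3 fell, beside 14.4% and 13.6% of all genes tested. The 9 calls became 5 (3 higher, 2 lower) without monoculture replicate 3 or hepatic replicate 3. NPC1 and NPC2, which carry cholesterol out of lysosomes, rose by 0.55 ± 0.09 and 0.43 ± 0.10. NPC1 went from 180.4 ± 8.47 to 265 ± 17.1 CPM without overlap. STARD3, a sterol carrier of late endosomes, rose by 0.28 ± 0.07. LRP8, a receptor for apolipoprotein E and reelin, fell by 0.62 ± 0.12, and LIPA, the lysosomal acid lipase, fell by 0.22 ± 0.06. Adjusted p of these 5 by edgeR's test ran from 2.7e-04 (NPC1) to 0.0162 (LIPA). The receptors in this list did not share a direction. LRP1 rose by 1.07 ± 0.32, from 135 ± 32.7 to 282 ± 105 CPM without overlap (edgeR, adjusted p = 0.0341). VLDLR (0.81) and SCARB1 (0.06) did not pass.

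Of 10 genes of efflux, esterification and the LXR response, 9 were tested. ABCG1, another LXR-induced exporter, was not, with a mean of at most 0.035 CPM in any condition. Of the 9, 3 rose and 2 fell, beside 14.4% and 13.6% of all genes tested. SOAT1, which esterifies cholesterol for storage, fell by 0.49 ± 0.07 from 113 ± 6.36 to 80.7 ± 5.67 CPM, without overlap. LPCAT3, a phospholipid acyltransferase induced by LXR, fell by 0.44 ± 0.11. CYP27A1, a mitochondrial sterol hydroxylase, rose by 0.83 ± 0.13 from 7.32 ± 0.64 to 13.0 ± 1.61 CPM. ABCA2, a transporter of lysosomal membranes, rose by 0.58 ± 0.12, and SMPDL3A, an LXR-induced phosphodiesterase, by 0.36 ± 0.10. Adjusted p by edgeR's test ran from 8.9e-05 (SOAT1) to 0.0107 (SMPDL3A). The known LXR targets in this group thus included a gene that rose, a gene that fell, and ABCA1, which did not pass.

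Fatty acid synthesis, the branch that shares acetyl-CoA and SREBP control, had 2 of 10 genes higher and 2 lower beside hepatic tissue, near the 14.4% and 13.6% of all genes tested. ACLY, which makes cytosolic acetyl-CoA from citrate, fell by 0.34 ± 0.07 and ACACA, acetyl-CoA carboxylase, by 0.24 ± 0.08. ACSS2, which makes acetyl-CoA from acetate, rose by 0.31 ± 0.09 and the desaturase SCD by 0.59 ± 0.19, to 2889 ± 204 CPM. Adjusted p by edgeR's test ran from 0.00114 (ACLY) to 0.0397 (SCD). Only ACLY passed whichever library was left out. The call of ACACA ended without monoculture replicate 4, hepatic replicate 1 or hepatic replicate 4, and with upper-quartile scaling. That of ACSS2 ended without monoculture replicate 1, monoculture replicate 4, hepatic replicate 2 or hepatic replicate 3. That of SCD ended without any of monoculture replicates 1, 3 and 4, any hepatic replicate or cardiac replicate 3, and with no low-count filter.

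Cardiac co-culture was compared with monoculture to ask the same of cardiac tissue, which the study describes by its resistance to metastasis. None of the 8 genes passed edgeR's quasi-likelihood test, against 8.26% of all genes tested (4.93% higher, 3.33% lower). DESeq2 called 1 of the 8, which was ABCA1, and it also called more genes over the whole table than edgeR did. The median log2 fold change of the 8 was 0.015, beside 0.0063 over all genes tested. Over all genes, 862 were higher and 581 lower, and with upper-quartile scaling 1076 and 414.

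ABCA1 had the highest fold change of the 8 genes, 1.19 ± 0.37 (95% confidence interval 0.36 to 2.03; edgeR, adjusted p = 0.0784). Its cardiac libraries measured 65.2, 70.6, 67.5 and 34.6 CPM, against 12.0 to 39.9 in monoculture. Cardiac replicates 1 to 3 lay above all monoculture libraries. Replicate 4, the only library with MYH6, MYL7, MYBPC3 and TNNI1 transcripts, lay within the monoculture range, as it did on the first principal component. The part of those transcripts in the lower ABCA1 and INSIG1 values of that library was not tested. Without cardiac replicate 4 the log2 fold change was 1.39 with adjusted p = 0.0285, and without monoculture replicate 2, the highest of its group, it was 1.48 and passed as well (edgeR). INSIG1 measured 251, 237, 233 and 180.1 CPM in the cardiac libraries. Replicates 1 to 3 again lay above the monoculture range (196 to 219) and replicate 4 below it. The log2 fold change was 0.15 (-0.04 to 0.34; edgeR, adjusted p = 0.319), and without cardiac replicate 4 it was 0.24 with adjusted p = 0.0319. Leaving out that library also raised the calls over all genes, from 1443 to 3378.

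SQLE measured 90.9, 94.5, 101 and 94.8 CPM beside cardiac tissue, and all 4 values lay below the monoculture range of 107 to 118. Such separation in this direction was found in 7.47% of all genes tested, and SQLE was the only 1 of the 8 genes with it in this comparison. Its log2 fold change of -0.24 ± 0.08 equalled the hepatic one to 2 decimals but missed the threshold here (edgeR, adjusted p = 0.0752). It passed with no low-count filter, with only these 8 libraries in the fit, or without hepatic replicate 1. FDFT1 measured 325, 283, 320.0 and 291 CPM and IDI1 150.1, 132, 141 and 123. Both had log2 fold changes of -0.17 with intervals just reaching 0 (-0.34 to 0.0075 and -0.35 to 0.0065), so neither was told apart from no change. HMGCS1 (154, 142, 165 and 146 CPM), SREBF2 (362, 402, 388 and 348) and STARD4 (122, 116, 121 and 99.4) overlapped monoculture, with log2 fold changes of -0.06, 0.09 and 0.09.

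Of the 21 synthesis enzymes, 2 fell and none rose beside cardiac tissue, against 3.33% of all genes that fell, with a median log2 fold change of -0.11. They were SC5D, a sterol desaturase (-0.37 ± 0.08, from 106 ± 11.4 to 81.7 ± 2.06 CPM; edgeR, adjusted p = 0.0154), and ACAT2 (-0.41 ± 0.12; edgeR, adjusted p = 0.0476). The count was 0 without monoculture replicate 3, cardiac replicate 2 or cardiac replicate 3. It was 1 without monoculture replicate 1, 2 or 4, hepatic replicate 3 or 4, or cardiac replicate 1, and with upper-quartile scaling.

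In the other lists, read against 4.93% higher and 3.33% lower among all genes tested, SREBF1 rose by 0.45 ± 0.11 to 148 ± 19.3 CPM, the only 1 of 7 genes of SREBP processing to pass. NPC1 (0.37 ± 0.09) and MYLIP, an LXR-induced ubiquitin ligase of lipoprotein receptors (0.41 ± 0.13), rose among 13 genes of uptake and transport, and TMEM97, an NPC1-binding membrane protein, fell by 0.46 ± 0.12. CYP27A1 (0.76 ± 0.13) and ABCA2 (0.55 ± 0.12) rose and SOAT1 fell by 0.33 ± 0.07 among 9 efflux and esterification genes, and the desaturases FADS1 (0.32 ± 0.09) and FADS2 (0.29 ± 0.08) rose among 10 fatty acid genes. Their adjusted p by edgeR's test ran from 0.00448 (CYP27A1) to 0.0497 (MYLIP). CYP27A1 was the only one of these 9 genes to pass whichever library was left out. ABCA2 was lost without monoculture replicate 3, SOAT1 without monoculture replicate 3 or cardiac replicate 2, and SREBF1, NPC1, TMEM97, FADS1 and FADS2 each without any of monoculture replicates 1, 3 and 4 or cardiac replicates 1 to 3. MYLIP was lost without any of those 6 libraries, monoculture replicate 2 or hepatic replicate 4, and also with DESeq2's size factors and with the replicate block. FADS1 was also lost with the replicate block and with only these 8 libraries in the fit. By list, calls were 0 to 3 of 7 genes of SREBP processing, 0 to 6 of 13 of uptake and transport, 1 to 4 of 9 of efflux and 0 to 4 of 10 fatty acid genes when single libraries were left out, the highest count of each without cardiac replicate 4 (for efflux also without monoculture replicate 2). Over all genes, 3378 were called without cardiac replicate 4, against 1443 with all 12 libraries, so the gain was not particular to these lists. Both co-cultures were set against the same monoculture libraries, so their calls are not independent.

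Cardiac against hepatic co-culture asked whether the partner tissue mattered. Only FDFT1 passed among the 8 genes, lower beside cardiac tissue (305 ± 20.8 CPM) than beside hepatic tissue (386 ± 49.0 CPM, n = 4 each), by -0.34 ± 0.08 on the log2 scale (edgeR, adjusted p = 0.0184). That is 1 of 8, against 6.18% of all genes tested (3.27% higher, 2.91% lower). The groups overlapped through hepatic replicate 1 at 317 CPM, below cardiac replicates 1 and 3. The call ended without hepatic replicate 2, hepatic replicate 3 or cardiac replicate 2, and with only these 8 libraries in the fit. IDI1 passed (-0.26, adjusted p = 0.0368 by edgeR) when hepatic replicate 1 was left out. ABCA1, at 59.5 ± 16.8 and 43.1 ± 10.8 CPM, differed by 0.46 (-0.36 to 1.28), which does not tell the co-cultures apart. SQLE had the same mean in both, 95.2 CPM, with an interval of the difference from -0.17 to 0.17.

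Among the 21 synthesis enzymes, 1 was higher and 1, FDFT1, lower in the cardiac than in the hepatic co-culture. Over all genes tested, 3.27% were higher and 2.91% lower. The count of 2 enzymes was 5 without hepatic replicate 1 and 0 without hepatic replicate 3. It was 1 without hepatic replicate 2 or 4 or cardiac replicate 2 or 3. LIPA (0.23 ± 0.07), ACACA (0.34 ± 0.08) and CH25H, an oxysterol-making hydroxylase (1.24 ± 0.36, at only 1.98 ± 0.69 and 0.83 ± 0.26 CPM), were higher, and SMPDL3A was lower (-0.43 ± 0.10). LIPA was the only call among 13 genes of uptake and transport, and ACACA the only one among 10 fatty acid genes. CH25H and SMPDL3A were the only calls among 9 efflux and esterification genes. None of the 7 genes of SREBP processing passed. Adjusted p by edgeR's test ran from 0.0113 (SMPDL3A) to 0.048 (CH25H). ACACA and SMPDL3A alone among these passed in all 18 alternative fits. The calls of LIPA and CH25H each ended when any hepatic replicate, any of cardiac replicates 1 to 3, or monoculture replicate 2 or 4 was left out, and that of LIPA also without monoculture replicate 1. Both also ended with upper-quartile scaling, with the replicate block and with only these 8 libraries in the fit.

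Within conditions, HMGCS1, IDI1, FDFT1, SQLE, INSIG1 and STARD4 shared much of their order among the hepatic libraries, less among the cardiac ones. Hepatic replicate 1 was the lowest hepatic library in 6 of these 6 genes, and hepatic replicate 2 the highest in 5. In the cardiac group replicate 4 was the lowest in 3 and replicate 2 in 2. The mean of their standardised log levels was -1.16 in hepatic replicate 1, 1.46 in hepatic replicate 2 and -1.20 in cardiac replicate 4, and between -0.29 and 0.24 in monoculture. ABCA1 and SREBF2 did the reverse in the hepatic group, where replicate 1 was the highest library for both (56.0 and 399.7 CPM). Mitochondrial transcripts took 6.01% of the counts in hepatic replicate 1 and 5.47% in cardiac replicate 4, the highest shares of their groups, against 4.94 to 5.27% and 4.64 to 5.14% in the others. Their totals were 29963477 and 37400378 counts. The part of either in the pattern was not tested.

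**Figure D4:**
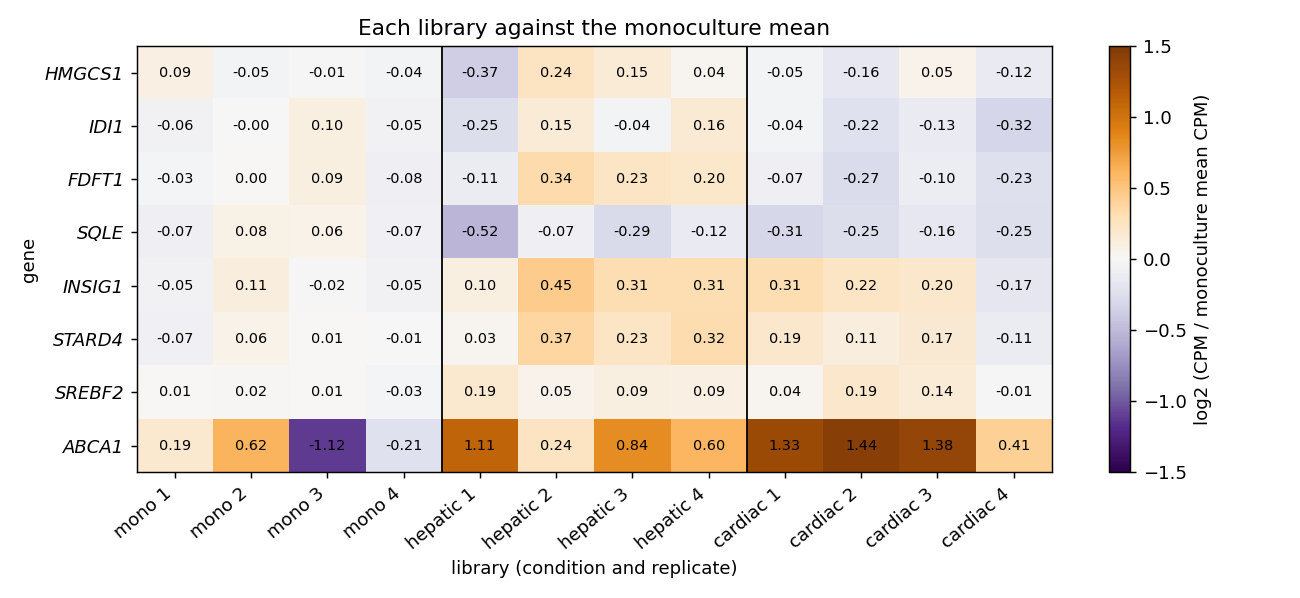
Log2 ratio of each library's CPM to the monoculture mean of the same gene (colour and printed value) for the 8 genes (rows) in the 12 libraries (columns). The hepatic replicate 1 column is negative for all 4 enzymes (-0.11 to -0.52) and positive for INSIG1 (0.097), STARD4 (0.031), SREBF2 and ABCA1, and the ABCA1 row runs from -1.12 to 1.44.

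The genes most like the 6 in pattern over the 12 libraries, by Pearson correlation of log CPM with their mean standardised level among 11615 protein-coding genes, were SCML1 (r = 0.93), ERBIN (0.92), YOD1 (0.91), CSNK1G3 (0.91) and CCDC88A (0.90). None of them was on the lists of sterol and fatty acid genes. Those most like ABCA1 were KDM4B (0.97), VWA1 (0.96), SREBF1 (0.95), KDM3A (0.95) and CHI3L2 (0.95). SREBF1, on the list of SREBP processing, was the only one from these lists. The correlations describe these 12 libraries, which share 3 conditions and their depth, and the genes were picked as the highest of many. With condition means removed, r stayed at 0.87 to 0.91 for the first 5 genes and at 0.89 to 0.97 for those like ABCA1.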

How the data were processed

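Raw counts of reads per Ensembl gene, not normalized, were deposited by the authors for 12 libraries. Per the submitters' processing notes, HISAT2 2.2.1, featureCounts 2.0.6, DESeq2 1.42.0 and build GRCh38 were used; settings, annotation and strand mode: not given in the sources used here. Genes on the opposite strand overlap 6 of the 8 loci, with counts of at most 2.16% of the gene's own (STARD4), and reads of such pairs cannot be told apart without strand. Names, coordinates and exon lengths came from GENCODE 29, which held all 58735 gene identifiers.

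Counts were TMM-scaled and tested with edgeR 4.0.16 (R 4.3.3, filterByExpr, robust quasi-likelihood fit, 1 factor over 12 libraries). Tests were two-sided, with Benjamini-Hochberg adjustment over 17468 genes and a threshold of 0.05. On simulated counts the procedure recovered 41.8% of 1.5-fold changes in both comparisons with hepatic co-culture and 56.7% in cardiac against monoculture. False were 6.06% of its calls (hepatic against monoculture), 1.45% (cardiac against monoculture) and 6.85% (cardiac against hepatic). Confidence intervals (95%) use the fit's SE. Log CPM used a prior count of 2. No replicate pair was a duplicate: the smallest chi-square per degree of freedom between 2 replicates' counts was 8.62, where sampling noise alone gives about 1. Alternatives were DESeq2 1.42.0, its size factors, upper-quartile scaling, no filter, a replicate block, a fit of only the groups compared, and each library left out.

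The 8 genes and the lists were chosen with earlier results of these data known. Named were the 8 genes, up to 5 called genes per list and comparison with the smallest adjusted p, and the 5 genes most like each pattern. LRP1, VLDLR and SCARB1 were named besides, as the other receptors in the list that holds LRP8. The values of 1 listed enzyme are not reported here, though it is counted in its list.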

Additional observations from a re-analysis of the deposited data

Results flagged for a closer look

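ABCA1 in cardiac replicate 4 stood apart from the rest of its group, at 34.6 CPM against 65.2, 67.5 and 70.6 in the other 3 libraries. The gap to the nearest was 0.85 of the group's range, above Dixon's 95% critical value for 4 values. It was the only one of 24 sets of 4 libraries (8 genes in 3 conditions) to exceed it, and chance gives about 1 in 20.

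The effects of the co-cultures against monoculture differed for 5 named genes, tested as the cardiac minus the hepatic log2 fold change with edgeR's quasi-likelihood test over all genes. FDFT1 differed by -0.34 (0.17 hepatic, -0.17 cardiac) and SMPDL3A by -0.43 (0.36 and -0.08). ACACA differed by 0.34 (-0.24 and 0.10), LIPA by 0.23 (-0.22 and 0.0079) and CH25H by 1.24 (-0.86 and 0.38). These are the cardiac against hepatic tests given above. For LIPA and CH25H the difference did not pass with upper-quartile scaling, with the replicate block or with only the 2 co-cultures in the fit. Neither difference passed when any hepatic replicate, cardiac replicate 1, 2 or 3, or monoculture replicate 2 or 4 was left out. That of FDFT1 did not pass with only the 2 co-cultures in the fit, or without hepatic replicate 2, hepatic replicate 3 or cardiac replicate 2.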

How the results depend on the processing

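With 4 libraries a condition, single libraries moved many calls; depth was ample, since the 8 genes had 12.0 CPM or more in every library. Hepatic against monoculture, leaving out single libraries gave 0 to 3 calls among the 8 genes and 5 to 11 among the 21 enzymes. Calls over all genes then ran from 3660 to 5529, against 4892 with all 12 libraries. The counts of the 8 genes and of the enzymes stayed within 1.5 times under the other alternatives. Cardiac against monoculture, calls among the 8 genes were 1 with DESeq2, with no low-count filter and with only the groups compared, and 0 to 2 with single libraries left out. Enzymes called were 1 with upper-quartile scaling and 0 to 3 without single libraries. Genes called over the whole table were 2406 with DESeq2, 2219 with no filter and 263 (without cardiac replicate 2) to 3378 (without cardiac replicate 4). Cardiac against hepatic, calls were 0 of the 8 genes and 0 of the enzymes with only the groups compared, 5 enzymes with DESeq2 and 4 with no filter. Without single libraries they were 0 to 2 genes, 0 to 5 enzymes and 676 to 1269 of all genes. The causes were not tested.

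Values near 0 changed sign: SQLE between the co-cultures was -0.0056 with upper-quartile scaling and -0.081 to 0.062 without single libraries. Leaving out single libraries, SREBF2 ran from -0.039 to 0.029 there, and in hepatic co-culture against monoculture HMGCS1 from -0.042 to 0.15 and IDI1 from -0.039 to 0.091.

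Same-numbered libraries did not deviate together (correlations from -0.08 to 0.11). The numbers were the replicate numbers of the labels, and other pairings or a shared plating were not tested. With the replicate block, 3, 0 and 1 of the 8 genes and 9, 2 and 3 enzymes were called in the 3 comparisons, and 4660, 1310 and 891 of all genes.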
